A study of Rattus norvegicus with 6 samples.

Results

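Chromosome 20 carried 4052 of the 151302 accessible chromatin regions detected by ATAC-seq in the kidney of the Dahl salt-sensitive (SS/Jr) rat, which was 2.68% of the list. The regions were taken by chromosome name alone, and those whose midpoint lay in the first 8 Mb, the end that carries the rat major histocompatibility complex (MHC, named RT1 in rats), were set against those of the remaining 48.2 Mb. The first 8 Mb held 828 regions and the rest held 3224. The study made 6 kidney libraries from this inbred strain, which becomes hypertensive on a salt diet: 3 with 1,3-butanediol at 20% in the drinking water for 6 weeks and 3 without treatment. Both sexes were used, and no library's sex was given. Butanediol is converted to the ketone body β-hydroxybutyrate, and the study asked whether chromatin occupancy in the kidney differed with it. The deposited list is titled as merged and names no library, so that it pools all 6 was assumed. It has no count, score or group for any region. Depth was therefore unknown, no region is assigned to either group, and there was no replicate error to test against. All differences below are descriptions of 1 list in the rn6 build, with no test, and positions are 1-based.

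ATAC-seq cuts DNA where nucleosomes leave it exposed, so a region on the list marks an open stretch such as a promoter or an enhancer. The MHC is a gene-dense part of the genome that encodes the class I molecules, which show peptides from inside the cell to T cells, the class II molecules, which show peptides taken up from outside, and the class III genes for complement factors, heat shock proteins and tumour necrosis factor cytokines. In rats, class I genes lie on both sides of the class II and class III genes, and olfactory receptor genes, silent in most tissues, adjoin the outer class I genes. Most kidney cells express class I, while class II is mainly a property of immune cells and can be induced in tubule cells.

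The gene order of this end was read from a RefSeq table of a later build, GRCr8, whose positions were not carried over to rn6. No accessible region below is therefore assigned to a gene. All 67 RT1 genes of that table were on chromosome 20, and the last gene of the MHC lists used here, Tapbp, a chaperone of class I loading, was number 503 of 1360 genes in order. Pseudogenes are counted in these numbers. They were 349 of the 1360 entries, 14 of 52 class I entries and 19 of 76 olfactory receptor entries. The first 100 genes held 69 olfactory receptor genes and 4 class I genes. The next 100 held 7 olfactory receptor genes and 15 class I genes, and 19 genes of the RT1-M class I family were among the first 200. Of 20 class III genes listed, 19 were in the table, between numbers 377 (Ddx39b, an RNA helicase) and 449 (C4b, a complement factor). All 14 genes of the class II and antigen processing list were present, from number 462 (RT1-Da, a class II alpha chain) onwards. Tap2, Psmb8, Tap1 and Psmb9 followed each other at numbers 469 to 472. Tap1 and Tap2 pump peptides to class I molecules, and Psmb8 and Psmb9 are subunits of the immunoproteasome that cuts them.

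**Figure D1:**
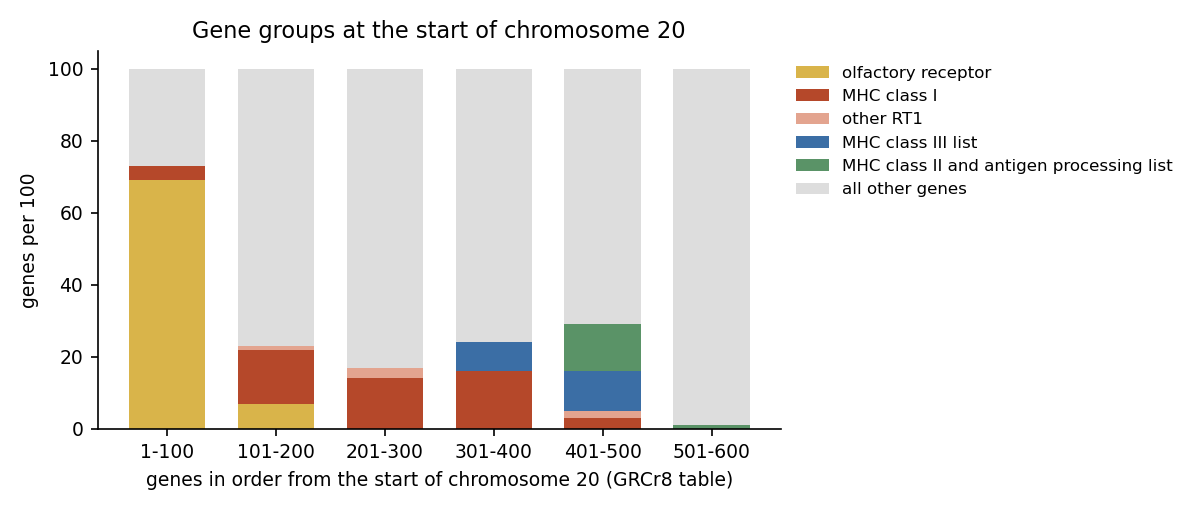
Number of genes of each group, pseudogenes included (y axis), in successive sets of 100 genes in order from the start of chromosome 20 (x axis), from the GRCr8 gene table. Olfactory receptor genes made up 69 of the first 100, class III list genes appeared in the sets 301 to 400 and 401 to 500, and 13 of 14 class II and antigen processing genes were in the set 401 to 500.

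Olfactory receptor promoters, as placed by annotated gene starts, were poor in CpG. The medians of the MHC groups lay near that of all promoters of the table and below that of chromosome 20. The CpG dinucleotide, written CG and identical on both strands, was counted in promoters running from 250 bases before to 50 bases after the gene start. Whether transcription begins at the annotated start was not tested. Olfactory receptor promoters on chromosome 20 had a median of 2 CpG, and 0% of 43 held 10 or more, against 41.5% of all promoters in the table and 49.6% of those on chromosome 20. Medians were 7 for 33 class I promoters, 5 for 13 class II and antigen processing promoters and 8 for 13 class III promoters. Over all 33469 promoters of the table the median was 7, and over the 785 of chromosome 20 it was 9. In the MHC groups the shares with 10 or more were 36.4%, 38.5% and 38.5%. In order along the chromosome, the median CpG count was 2 in the first 100 genes, 3.5, 5, 11 and 13 in the next sets of 100, and 18 in genes 501 to 600. These medians rest on the 45, 28, 17, 53, 68 and 76 genes of each set that had a promoter entry. Within the class II and antigen processing list, Tap1 and Tap2 had 21 CpG each and Psmb9 had 17, whereas RT1-Da had 0 and RT1-Bb, a class II beta chain, had 2. At least 1 CpG was present in 94.5% of promoters of the table and in 76.7% of the olfactory receptor promoters. No test was run on these counts. One promoter of a protein-coding gene is shown for each group, the one nearest the median count of the group's protein-coding genes and first in order among equals, to display what the beginning of the chromosome and the MHC carry at gene starts. CpG is in capitals, sequences are from RefSeq, and their GRCr8 coordinates cannot be compared with the rn6 positions of the regions.
Or2n1i (chr20:390803-391102, GRCr8, minus strand): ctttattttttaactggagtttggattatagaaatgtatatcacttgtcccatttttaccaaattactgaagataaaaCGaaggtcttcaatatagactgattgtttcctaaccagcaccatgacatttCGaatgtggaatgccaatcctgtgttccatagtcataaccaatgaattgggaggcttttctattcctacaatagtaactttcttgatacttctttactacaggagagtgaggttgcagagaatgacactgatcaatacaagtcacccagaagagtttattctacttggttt
RT1-T18 (chr20:2610028-2610327, GRCr8, plus strand): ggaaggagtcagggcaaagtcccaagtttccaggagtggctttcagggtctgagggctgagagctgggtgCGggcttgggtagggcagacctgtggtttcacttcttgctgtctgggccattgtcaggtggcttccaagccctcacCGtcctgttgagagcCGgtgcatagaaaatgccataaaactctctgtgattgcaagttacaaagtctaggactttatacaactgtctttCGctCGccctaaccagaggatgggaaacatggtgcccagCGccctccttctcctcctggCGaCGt
RT1-Ha (chr20:4772092-4772391, GRCr8, minus strand): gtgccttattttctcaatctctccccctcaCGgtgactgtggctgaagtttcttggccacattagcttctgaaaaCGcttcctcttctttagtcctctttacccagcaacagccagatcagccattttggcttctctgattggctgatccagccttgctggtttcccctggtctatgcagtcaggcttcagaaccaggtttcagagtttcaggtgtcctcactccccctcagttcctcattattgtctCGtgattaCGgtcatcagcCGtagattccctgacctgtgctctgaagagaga
Hspa1a (chr20:3859506-3859805, GRCr8, plus strand): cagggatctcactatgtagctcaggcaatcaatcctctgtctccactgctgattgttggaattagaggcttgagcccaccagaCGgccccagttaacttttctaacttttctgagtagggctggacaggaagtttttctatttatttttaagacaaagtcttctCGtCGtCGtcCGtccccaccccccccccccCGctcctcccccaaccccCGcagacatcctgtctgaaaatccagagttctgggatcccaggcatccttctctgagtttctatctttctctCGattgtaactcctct
The olfactory receptor promoter Or2n1i held 2 CpG in 300 bases with a GC content of 35.3%. The 50 bases after its annotated start open with ATG, the start codon triplet, so this stretch may not be the promoter. The class I promoter RT1-T18 held 8 with 54.7% GC, where the 30 protein-coding class I promoters had a median of 7, and the promoter of RT1-Ha, a gene of the class II alpha chain family, held 5 with 49.7% GC. The promoter of Hspa1a, an inducible heat shock protein, held 8 with 50.3% GC.

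The first 8 Mb is called the MHC end here, although which of its regions lie inside the MHC was not determined. This end was denser in open regions than the rest of the chromosome. It held 103.5 regions per Mb against 66.9 in the rest, 1.55 times as many, and 56.5 on the other 19 autosomes. With 14.2% of the span, the first 8 Mb had 20.4% of the chromosome's regions and 27.7% of those 1 kb or wider. Open regions covered 5.67% of its bases against 3.33% in the rest. Density was taken from the first base of the chromosome to the end of the last region. The boundary fell between a region of 911 bp at chr20:7998745-7999655 and one of 207 bp at chr20:8006451-8006657.

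The 8 Mb were not uniform. In order, the 1-Mb windows held 28, 18, 40, 137, 138, 151, 137 and 179 regions. The first 3 Mb were sparse, at 28.7 regions per Mb, or 0.429 times the density of the rest of the chromosome. The next 5 Mb were dense, at 148.4 per Mb, which was 5.18 times the density of the first 3 Mb and 2.22 times that of the rest. These 5 windows held 742 of the 828 regions (89.6%). The division at 3 Mb was made after the counts were seen. Its windows do not overlap, with a highest count of 40 before it and a lowest of 137 after it.

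Along the remaining chromosome the 48 whole windows ranged from 0 to 170 regions, with a median of 64. Of these 48, 6 reached the 137 regions of the lowest dense MHC-end window. The densest window of the whole chromosome was chr20:7000001-8000000 with 179 regions, followed by chr20:20000001-21000000 with 170, chr20:10000001-11000000 with 167, chr20:46000001-47000000 with 164 and chr20:8000001-9000000 with 160. On the other 19 autosomes 11 of 2552 windows held 179 regions or more. None of the 5 sparsest windows, 6 with a tie, was in the first 8 Mb, which held 8 of the 56 windows. The windows chr20:36000001-37000000 and chr20:52000001-53000000 held 0 regions, chr20:39000001-40000000 held 2, chr20:53000001-54000000 held 4 and chr20:24000001-25000000 and chr20:51000001-52000000 held 8 each.

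**Figure D2:**
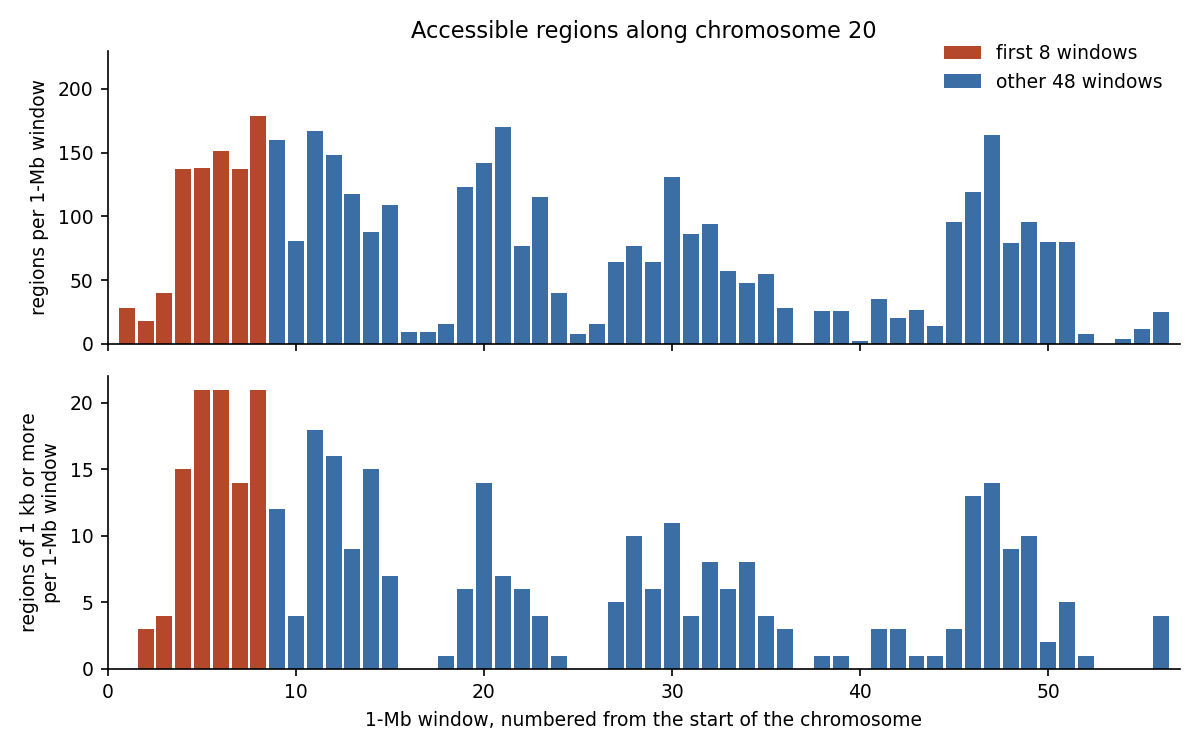
Number of accessible regions (upper panel, y axis) and of regions 1 kb or wider (lower panel, y axis) in each whole 1-Mb window of chromosome 20, in order from its start (x axis), with the first 8 windows in red and the other 48 in blue. Counts step from 40 to 137 between the third and the fourth window, and 3 of the first 8 windows hold 21 wide regions, more than the 18 of the highest blue window.

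The dense stretch ran on past 8 Mb. Windows of 130 or more regions followed each other without a break from chr20:3000001-9000000, 6 windows with 902 regions. Such windows made up 7.44% of all autosomal windows, and the longest unbroken row on another autosome was 5, on chromosome 10. This rank depended on the minimum chosen. At 100 or more regions the row on chromosome 20 was again 6 windows, but 5 rows on other autosomes were at least as long and the longest, on chromosome 19, had 9. At 140 or more it shortened to 2, and 15 rows elsewhere were at least as long. Among 49 stretches of 8 Mb taken along chromosome 20 in steps of 1 Mb, the first 8 Mb ranked 9th by count, and the densest stretch was chr20:4000001-12000000 with 145.1 regions per Mb.

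At 100-kb resolution the counts on the 2 sides of 3 Mb overlapped. Of the 30 windows before 3 Mb, 15 were empty and the highest count was 15. Of the 50 windows from 3 to 8 Mb, 1 was empty, the median was 15.5 and the highest count was 25. The rest of the chromosome had a median of 4 per window, and 22.0% of its 481 windows were empty, against 24.98% on the other 19 autosomes. Windows with 20 or more regions made up 24.0% of those from 3 to 8 Mb, 6.86% of the rest and 3.49% on the other 19 autosomes. The variance of 100-kb counts was 6.14 times their mean in the first 8 Mb and 7.20 times in the rest.

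**Figure D3:**
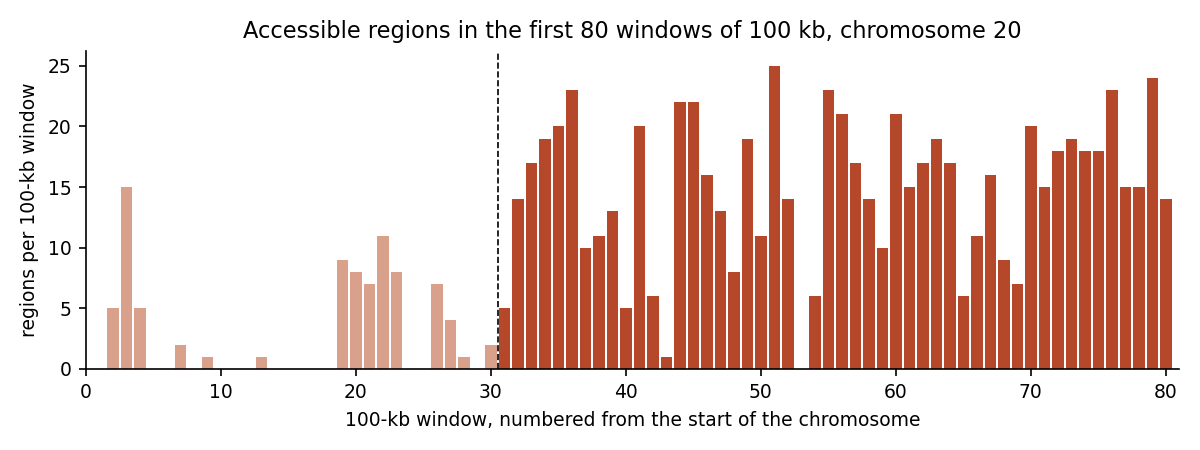
Number of accessible regions (y axis) in each of the first 80 windows of 100 kb of chromosome 20, in order from the chromosome's start (x axis). The dashed line marks the division at 3 Mb, with light bars before it, of which 15 of 30 are at 0 and none exceeds 15, and dark bars after it, of which 1 of 50 is at 0.

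The densest 100-kb windows were spread over the chromosome. Ties at 23 regions made the 10 densest into 13 windows. The first 8 Mb, with 80 of the 561 windows, held 5 of these. They were chr20:5000001-5100000 with 25 regions, chr20:7800001-7900000 with 24, and chr20:3500001-3600000, chr20:5400001-5500000 and chr20:7500001-7600000 with 23 each. The highest counts of the chromosome were elsewhere, 30 regions at chr20:20600001-20700000 and 29 at chr20:11700001-11800000. The others were chr20:10700001-10800000 and chr20:29400001-29500000 with 25, chr20:30300001-30400000 and chr20:45100001-45200000 with 24, and chr20:13700001-13800000 and chr20:14500001-14600000 with 23.

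Within the sparse first 3 Mb the 86 regions fell into islands separated by 100 kb or more. The chromosome's first region was at chr20:171139-171415, 277 bp wide. It opened an island of 25 regions that reached base 354055, over 183 kb. Their median width was 292 bp, and the widest was 827 bp. Only 4 regions, in 3 islands, followed over more than 1 Mb. The largest island, chr20:1817842-2247777, held 43 regions with a median width of 417 bp, 6 of them 1 kb or wider. A further island, chr20:2500406-2716588, held 12 regions with a median width of 452 bp. The last, of 2 regions, began at base 2982346 and led into the dense stretch, where the next region started at base 3004091.

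The longest stretches without a region at the MHC end all lay before 3 Mb. They were chr20:1200605-1817841 with 617 kb, chr20:871491-1200317 with 329 kb, chr20:354056-667418 with 313 kb, chr20:2716589-2982345 with 266 kb and chr20:2247778-2500405 with 253 kb. Gaps of 100 kb or more took up 65.9% of the first 3 Mb, 3.14% of the 5 Mb that followed and 37.3% of the rest of the chromosome. Between 3 and 8 Mb only 1 gap reached 100 kb, at chr20:5175998-5332816 with 157 kb, and the next was chr20:4214991-4300633 with 85.6 kb. The rest of the chromosome had longer empty stretches, of which chr20:51499742-53804791 with 2305 kb and chr20:35747619-37157973 with 1410 kb were the longest. They were followed by chr20:38985314-39621020 with 636 kb, chr20:39622151-40236342 with 614 kb and chr20:54082434-54511607 with 429 kb.

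Regions at the MHC end were wider than those of the rest. Their median width was 444 bp (interquartile range 300.2 to 690 bp) against 400.5 bp (287.8 to 612.2 bp), a difference of 43.5 bp, and the mean was 547 ± 339 bp against 498 ± 299 bp (SD over regions). The interquartile ranges overlap, and the lower quartiles differed by less than the upper ones. Regions of 1 kb or more made up 11.96% at the MHC end (99 of 828), 8.0% in the rest (258 of 3224) and 7.73% on the other 19 autosomes. They contributed 28.01% of the open bases of the MHC end and 20.2% of those of the rest. Narrow regions were correspondingly fewer, with 25% under 300 bp at the MHC end and 28.4% in the rest. Regions of exactly 200 bp, the smallest width listed, made up 2.90% and 4.22%.

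The greater width was found in the dense windows. The first 3 Mb had a median width of 401 bp, within 1 bp of the rest, and 7 regions of 1 kb or more. From 3 to 8 Mb the median was 447.5 bp and 92 regions reached 1 kb, or 18.4 per Mb against 5.35 in the rest. Window medians there were closely alike, at 444, 451.5, 450, 447 and 444 bp. Of 27 windows of the rest with 50 or more regions, whose medians ran from 352.5 to 481 bp, 5 were at 444 bp or above. Windows of like density were also compared, those with 137 to 179 regions. The 6 in the rest of chromosome 20 had medians of 386.5 to 480.5 bp, of which 1 reached 444 bp. The 130 on the other 19 autosomes had a median of 414 bp (interquartile range 399.5 to 438.8 bp), and 23.1% reached 444 bp. The share of regions 1 kb or wider was 10.2% to 15.2% in the windows from 3 to 8 Mb, with a median of 11.7%. In those 130 windows it ran from 2.16% to 18.75% with a median of 8.28%, so the windows from 3 to 8 Mb lie within that range. In the 6 windows of the rest of chromosome 20 it was 4.12% to 10.8%, with a median of 9.20%.

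Wide regions per window ran 0, 3, 4, 15, 21, 21, 14 and 21 along the first 8 Mb. The rest of the chromosome had a median of 4 per window and a maximum of 18, and 5 of its 48 windows reached 14. Of the 10 widest regions on chromosome 20, 3 lay at the MHC end, which had 20.4% of all its regions. The region chr20:6351226-6353599 was 2374 bp wide and shared the highest width with chr20:46426189-46428562. It was followed at the MHC end by chr20:7929595-7931685 with 2091 bp, chr20:3298709-3300666 with 1958 bp, chr20:6256664-6258431 with 1768 bp and chr20:6048478-6050199 with 1722 bp. In the rest, chr20:29510120-29512372 was 2253 bp wide, and the other members of the 10 widest measured 1880 to 1931 bp. The nearest neighbour of the 2374 bp region at the MHC end was 1155 bp away, and the neighbours of the 2091 and 1958 bp regions were 7665 and 8272 bp away.

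**Figure D4:**
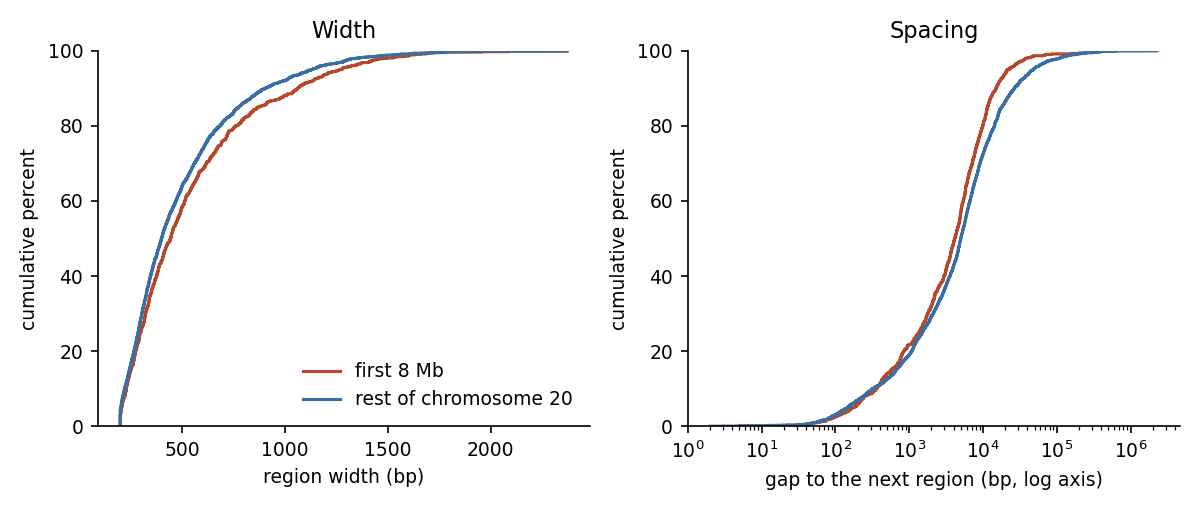
Cumulative percent of regions (y axis) by width in bp (left panel, x axis) and of gaps between neighbouring regions by length in bp on a log axis (right panel, x axis), for the first 8 Mb of chromosome 20 (red) and the rest (blue). The red width curve lies to the right, with medians of 444 and 400.5 bp, and the red gap curve lies to the left, with medians of 4125 and 4997 bp.

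The median gap differed less than density, but a median gives little weight to the longest gaps. Gaps of 100 kb or more took up 26.7% of the first 8 Mb and 37.3% of the rest. The median gap, edge to edge, was 4125 bp at the MHC end (interquartile range 1353 to 8280 bp) and 4997 bp in the rest (1496 to 11090 bp), a ratio of 0.825. The upper quartiles were further apart than the lower ones. Gaps of 50 kb or more made up 1.33% of the gaps at the MHC end and 4.62% in the rest, while gaps under 500 bp made up 14.0% and 12.6%. In the sparse first 3 Mb the median gap was 7668 bp, and from 3 to 8 Mb it was 3943 bp. The windows from 3 to 8 Mb had median gaps of 3437.5 to 4635 bp. The 130 windows of like density on other autosomes ranged from 2860 to 5536 bp around a median of 4023.5 bp. The windows from 3 to 8 Mb therefore lie within that range. In the 6 windows of like density in the rest of chromosome 20, median gaps ran from 2750 to 4426 bp. Their median was 3689 bp, against 3810 bp for the windows from 3 to 8 Mb. At like density, shorter gaps at the MHC end were thus not seen within the chromosome.

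Close neighbours were slightly more frequent at the MHC end. There 38.5% of regions (319 of 828) had another within 1 kb, against 34.2% (1102 of 3224) in the rest and 32.0% on the other 19 autosomes. The share was 24.4% in the first 3 Mb and 40.2% from 3 to 8 Mb. It did not follow the count of regions window by window. In order from the fourth window it was 43.8%, 45.7%, 45.7%, 35.04% and 32.4%, so the densest window of the chromosome had the lowest share of these 5. The 6 windows of like density in the rest of chromosome 20, with 137 to 179 regions, had shares of 35.9% to 44.3%. These lie within the range of the 5 windows, so at like density no excess of close neighbours was seen within the chromosome. Wide regions stood farther from their neighbours in both parts. At the MHC end the median distance to the closest neighbour was 3497 bp for regions of 1 kb or more and 1609 bp for narrower ones, and in the rest these medians were 3820.5 and 1935 bp.

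A run was defined as regions that follow each other at under 500 bp. The MHC end had 95 runs with 211 regions, 25.5% of its members, and the rest had 346 runs with 751 regions, 23.3%. The longest runs on the chromosome held 4 regions, and 4 of these 8 runs were at the MHC end, which had 20.4% of the chromosome's regions. They were chr20:3263110-3266118, chr20:4575183-4577773, chr20:5576166-5578630 and chr20:7863133-7865335. The first was 3009 bp long and 71.1% open, with regions of 457, 347, 505 and 830 bp. The third was the least filled of the 8, 46.1% open, with regions of 203, 285, 447 and 202 bp. The other 4 runs were chr20:10123301-10125804, chr20:14544690-14547891, chr20:40851613-40853531 and chr20:49299539-49302278, 70.1% to 77.4% open. No run of 4 lay in the first 3 Mb, which held only 86 of the chromosome's 4052 regions.

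The beginnings of the other autosomes gave a scale for these values. The first 8 Mb of chromosome 20 was the densest of the 20 chromosome beginnings, since the other 19 had 2.88 to 81.9 regions per Mb with a median of 50.25. Relative to the rest of its own chromosome, its ratio of 1.55 was the third highest, after chromosome 16 with 1.74 and chromosome 15 with 1.71, and 7 of the other 19 chromosomes had a ratio above 1. The 3 to 8 Mb part of chromosome 20, with 148.4 regions per Mb, was above the same interval of every other autosome (2.20 to 89.4), whereas its first 3 Mb ranked 16th of 20. At 103.5 per Mb, the first 8 Mb was exceeded by the last 8 Mb of chromosomes 7 (118), 5 (117.75), 19 (114.6) and 10 (113.9).

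Median width in the first 8 Mb of chromosome 20 was the second highest of the 20, after chromosome 7 with 479 bp, where 217 regions were counted. On the other 19 chromosomes the first 8 Mb differed from the rest by -84 to 79 bp in median width, with a median difference of -14 bp. Chromosome 20, at 43.5 bp, was again second to chromosome 7. The share of regions 1 kb or wider, 11.96%, was also second, after 15.2% on chromosome 7. The median gap of 4125 bp was the shortest of the 20, the next being 4726 bp on chromosome 3. The ratio of gaps, 0.825, was second to 0.816 on chromosome 15. For neighbours within 1 kb, the difference of 4.35 percentage points was the fourth highest, after chromosomes 17, 14 and 15 with 10.7, 8.62 and 4.74.

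**Figure D5:**
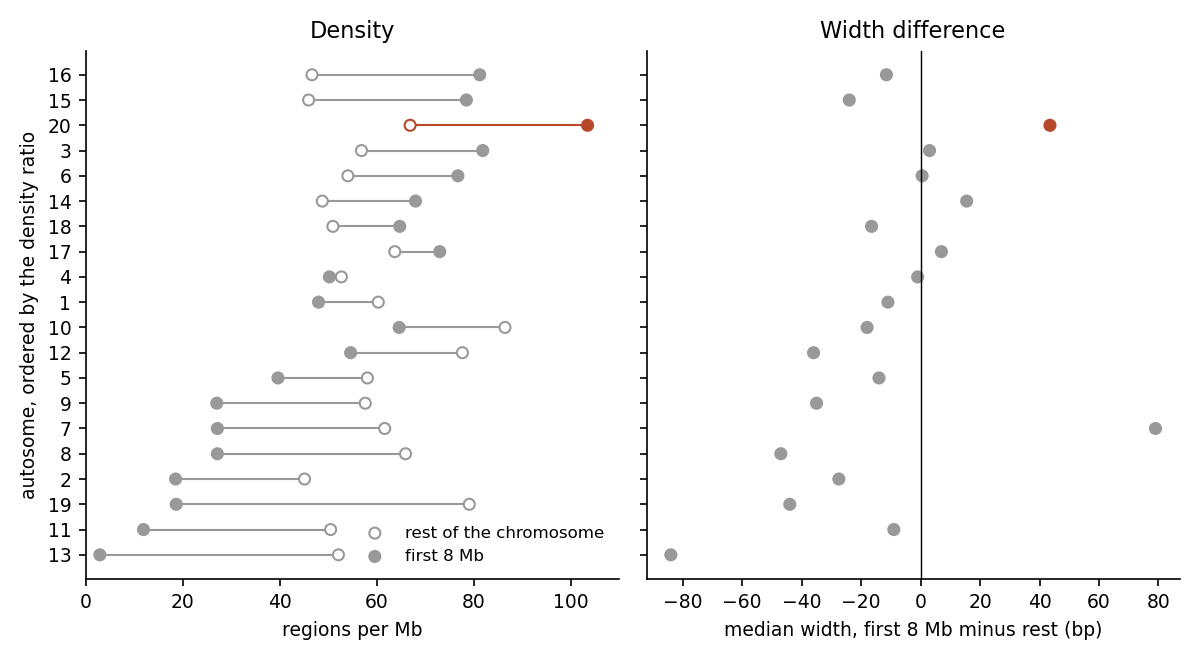
For each of 20 autosomes (y axis, ordered by the ratio of densities), regions per Mb in the first 8 Mb (filled points) and the rest (open points) in the left panel, and median width in the first 8 Mb minus the rest in bp in the right panel (x axes), with chromosome 20 in red. Chromosome 20 has the highest first 8 Mb density, 103.5 per Mb, and the second highest width difference, 43.5 bp.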

How the data were processed

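Nuclei from 100 mg of flash-frozen kidney powder were enriched on a density gradient, and 50000 nuclei were tagmented per library by the Omni-ATAC procedure and sequenced in paired reads of 150 bases, per the labels' protocols. FastQC, Trim Galore and cutadapt are named, with the rn6 build, in the submitters' processing notes. Not given in the sources used here are the aligner, the peak caller with its thresholds, the treatment of reads that match several places, and the merging rule. The rn6 assembly comes from Brown Norway rats, so positions in the polymorphic MHC are those of another strain. The authors deposited 1 list with 4 columns (chromosome, start, end, name), so the positions in bp are the only deposited measurement and depth is unknown.

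Starts were read as 0-based. Regions were assigned to windows and parts by midpoint, and incomplete last windows were left out. Gaps were counted within a part. Python 3.11.15, numpy 2.4.6, pandas 2.3.3 and matplotlib 3.10.9 were used. The computation of the density ratio and the width difference was checked on simulated regions placed uniformly at random. The gap ratio and the share with a neighbour were not checked in this way. Windows, regions and chromosomes are not replicates, so no test was run. Named windows and regions follow a fixed rule: all windows of the first 8 Mb, the 5 densest and sparsest 1-Mb windows, the 10 densest 100-kb windows, the 10 widest regions, the 5 widest regions and the 5 longest gaps of the end, the longest gaps of the rest, the longest runs, and the regions at the boundary. Islands, the division at 3 Mb, windows of like density, the minimum counts for rows of dense windows and the promoter comparison were added after the values were seen. Members, lists and comparisons were chosen with earlier results of these data known. Gene names and promoters came from RefSeq tables of GRCr8. Of the listed genes, 13 of 14 class II and antigen processing genes and 13 of 19 class III genes had a promoter entry. Placement of regions relative to genes was not analysed here, and the sequence of the regions was not used here. For the alternatives below, a value was counted as moved when it left the 95% interval of the deposited value from binomial counts or order statistics, which covers counting error only.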

Additional observations from a re-analysis of the deposited data

How the results depend on the processing

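The 4 comparisons of the first 8 Mb with the rest were recomputed under 9 alternative settings, 6 to 8 for each comparison. None of the 28 resulting values reversed a direction, and 26 stayed within the counting interval of the deposited value. That interval treats regions as independent, whereas the variance of 100-kb counts was 6.14 times their mean in the first 8 Mb and 7.20 times in the rest. It is therefore a yardstick and not a test. Shares with a neighbour within 500 bp and 2 kb are other quantities and were set against the interval of the 1 kb share. The ratio of densities moved from 1.55 to 1.21 with the end taken as the first 6 Mb, and to 2.22 with the sparse first 3 Mb left out, an alternative chosen after seeing the data. The other 5 alternatives for the density kept it between 1.51 (empty 100-kb windows left out) and 1.66 (first 10 Mb). The difference in median width ran from 24 bp (first 10 Mb) to 65.5 bp (regions under 500 bp apart joined), and the ratio of median gaps from 0.789 to 0.848. The difference in the share with a neighbour ran from 2.12 percentage points (regions of at least 300 bp) to 7.48 (first 6 Mb). Joining removes the closest neighbours by construction. No paired analysis was possible because regions carry no values of single libraries, and leaving out replicates was not run for that reason. With unknown depth, an empty stretch may be closed chromatin or lie below the threshold of detection, and unassembled or repeated sequence was not masked.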

Other observations

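The opposite end of chromosome 20 went the other way. The last 8 Mb held 36.5 regions per Mb, 0.468 times the density of the chromosome before it. On the other 19 autosomes this ratio ran from 0.572 to 2.17 with a median of 1.35, so chromosome 20 had the lowest ratio of the 20. By density alone its last 8 Mb ranked 18th, above those of chromosome 6 with 32.4 and chromosome 18 with 31.1 per Mb. The last 8 Mb of chromosome 20 contain its longest gap, chr20:51499742-53804791, and the sparse windows chr20:52000001-53000000 with 0 regions and chr20:53000001-54000000 with 4. These values are a description, and no test was run.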
